A study of Mus musculus with 20 samples.

Results

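The genes of 10 secreted growth factors that endothelial cells can release were followed in the endothelium of 2 mouse muscles: Pdgfa, Pdgfb, Hbegf, Hgf, Igf1, Igf2, Bmp2, Bmp4, Bmp6 and Kitl. They were chosen by name, with earlier results of these data known, and make up 10 of the 42374 genes summed from the deposited tables. Of the 10, 9 passed the filter on low counts and were tested among 13971 genes. Hgf did not pass. Positions are from GENCODE release M21 on GRCm38.

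Each of 4 groups held 5 libraries from C57BL/6N mice. Cells with CD31, an adhesion molecule of endothelium, and without CD45, a leukocyte marker, were sorted from either of a pair of muscles: the soleus, which is oxidative, and the extensor digitorum longus, which is glycolytic. The ECKO mice lacked, in endothelial cells, the gene Atf4, whose product switches on genes of the integrated stress response. Recombination was induced at 8 to 10 weeks of age by 1 mg tamoxifen a day, injected into the abdominal cavity over 5 days, with a washout of at least 7 days. The controls, called wild type, were Cre-negative littermates given tamoxifen too, so all 4 groups share the drug. The labels name neither the Cre driver nor the number of animals behind a library. Each p-value therefore rests on how far the libraries of a group spread, and that spread may be technical.

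Growth factors released by endothelium are called angiocrine when they act on the cells around the vessel. PDGF ligands signal to mural cells and fibroblasts through Pdgfra and Pdgfrb, and endothelial PDGF-B recruits pericytes to capillaries. HB-EGF is made as a membrane protein, is shed by ADAM proteases and binds receptors of the EGF family. HGF and the IGFs act on muscle precursor cells and muscle fibres, BMPs signal through receptor complexes and SMAD proteins to targets such as the Id genes, and Kit ligand, encoded by Kitl, binds the receptor Kit.

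Sequences are shown first for the alternative exons that tell the forms of Kitl and Pdgfa apart, because one form of each ligand stays more tightly bound to the cell or matrix than the other. The transcript Kitl-202 encodes 273 amino acids and holds exon 6 (chr10:100080857-100080940, GRCm38, plus strand), which carries the main cleavage site for release of the soluble ligand. Kitl-201 encodes 245 amino acids and lacks these 84 coding bases. Pdgfa-201 encodes the longer form of 211 amino acids through the coding bases of exon 6 (exon at chr5:138978622-138978690, minus strand), a stretch rich in codons for basic residues that retains the ligand. Pdgfa-202 skips that exon and encodes 196 amino acids. Both sequences are coding, read 5′ to 3′, and no letters are set in capitals because no site in them was searched.
Kitl exon 6: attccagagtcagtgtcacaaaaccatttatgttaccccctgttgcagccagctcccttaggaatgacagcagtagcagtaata
Pdgfa exon 6, coding part: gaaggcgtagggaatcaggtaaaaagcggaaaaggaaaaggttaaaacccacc

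The 250 bases before the start of Bmp4 (chr14:46390670-46390919, GRCm38.p6, minus strand, RefSeq) are shown as the promoter of a member that was called higher in ECKO in both muscles.
Bmp4 upstream: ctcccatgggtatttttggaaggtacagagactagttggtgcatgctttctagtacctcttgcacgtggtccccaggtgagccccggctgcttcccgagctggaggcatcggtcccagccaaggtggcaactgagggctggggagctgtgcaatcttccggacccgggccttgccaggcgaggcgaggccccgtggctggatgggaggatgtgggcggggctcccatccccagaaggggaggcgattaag
RefSeq windows of 250 bases before to 50 bases after a start were used for 7 of the 10 members, with 12 windows in all. These were Pdgfa, Hgf, Igf1, Igf2, Bmp4, Bmp6 and Kitl. The remaining members had no window, so the search says nothing of them. Of the members with a called interaction of muscle and genotype, given below, only Bmp6 was searched. On both strands of those windows 3 motifs were searched, overlaps allowed: TGATGNAA, a form of the element that ATF4 binds with a C/EBP partner, TGANTCA, the AP-1 motif, and TGACGTCA, the cyclic AMP response element. Among 32851 windows of the same length, 3.97% held the first, 7.81% the second and 1.79% the third. None of the 12 windows held TGATGNAA or TGACGTCA, and 1 held TGANTCA, at base 214 of the window of Igf1 (chr10:87860861-87861160). A match or its lack describes these letters in these windows and says nothing of binding.

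Before the members, the deletion and the purity of the sort were checked. Atf4 stood between 243 and 589 CPM (estimated counts scaled to a common library total with TMM factors) in the 10 wild type libraries and between 5.79 and 8.7 CPM in the 10 ECKO libraries. Library totals ranged from 8013223 to 21720127 counts. The 12 endothelial markers summed to between 9150 and 11000 CPM in every library. Leukocyte markers (12 genes) summed to 274 to 361 CPM in oxidative wild type, 20.5 to 25.8 in glycolytic wild type, 36.8 to 83.8 in oxidative ECKO and 13.2 to 15.5 in glycolytic ECKO. The 10 mural markers summed to between 594 and 1220 CPM in 3 groups and to between 2000 and 2070 CPM in glycolytic ECKO, where Acta2 stood at 1010 to 1040 CPM against 186 to 190 CPM in glycolytic wild type. Muscle fibre markers summed to at most 240 CPM and fibroblast markers to at most 438 CPM.

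Sex-linked RNA moved with genotype. All 10 wild type libraries held Y-linked RNA (92.1 to 118 CPM over 4 genes), and the 5 glycolytic ECKO libraries held Xist at 59.3 to 66.4 CPM with Y-linked RNA at or below 1.55 CPM. Both kinds were present in oxidative ECKO libraries 1, 2 and 3 (64.6, 65.6 and 32.2 CPM Y-linked), while libraries 4 and 5 held Xist with 0.932 and 1.1 CPM Y-linked. All 5 oxidative ECKO libraries held Xist, at 18 to 81.5 CPM, against at most 0.274 CPM in wild type. In neither muscle can genotype and sex be told apart, and since the sex-linked RNA also differed between the ECKO muscles, the same holds for the comparison of those muscles and for the interaction. Other RNA split the oxidative ECKO libraries in the same way. Fibroblast markers summed to 65.6, 68.1, 226, 438 and 424 CPM in libraries 1 to 5, and all 10 stood higher in libraries 4 and 5 than in 1, 2 and 3, as did 7 of 10 mural and 7 of 10 muscle fibre markers. Leukocyte markers ran the other way, at 83.7, 75.8, 75.1, 51.9 and 36.7 CPM. Results in oxidative muscle are given with all 5 ECKO libraries, and values with libraries 4 and 5 alone or 1, 2 and 3 alone stand beside those whose call or sign they change, and beside those of Hbegf, Pdgfb and Kit.

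Compared per transcript length, Kitl had the highest mean of the members in both wild type groups and Pdgfb in both ECKO groups, and Hgf was close to 0. All transcripts of a gene are summed here, noncoding ones included. In glycolytic ECKO the sums of Pdgfb (89.6 ± 4.75 TPM), Bmp4 (87 ± 6.03) and Kitl (85.2 ± 6.6) did not differ beyond their spread. Of the Bmp4 sum, 25.4 TPM came from a noncoding transcript of 258 bases with a mean of 23.6 counts. The coding transcripts of Bmp4 stood at 39.6 and 18.2 TPM. The leading coding transcripts of Pdgfb and Kitl stood at 83.3 and 68.2 TPM, so the likeness of Bmp4 did not hold for coding RNA. In glycolytic wild type, Kitl stood at 94.8 ± 6.04 TPM (the deposited length-scaled unit; SD, n = 5), Pdgfb at 81.7 ± 4.09, Bmp4 at 66.6 ± 4.26, Hbegf at 48.1 ± 3.06, Igf2 at 41.5 ± 2.43, Bmp6 at 34.7 ± 2.84 and Pdgfa at 22.3 ± 2.46. Igf1 followed at 6.79 ± 0.81 TPM and Bmp2 at 1.53 ± 0.497 TPM. The order differed between groups: Hbegf, at 73 ± 2.91 TPM, stood above Pdgfb, at 59.5 ± 2.7 TPM, and Bmp4, at 47.5 ± 6.68 TPM, in oxidative wild type. In oxidative ECKO the mean of Pdgfb was 107 ± 11.5 TPM and that of Kitl 88.3 ± 12 TPM, a difference within about the spread of both.

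**Figure D1:**
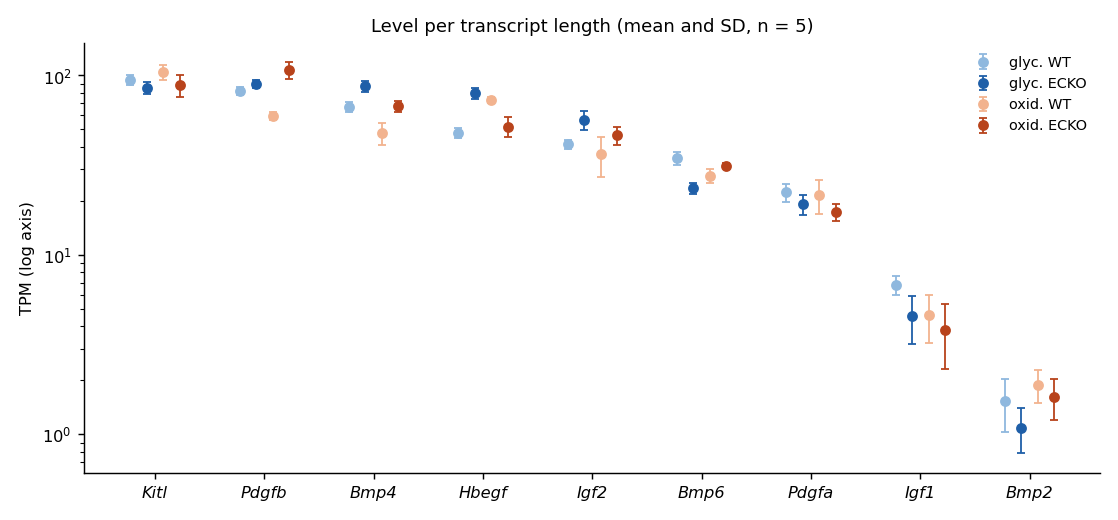
Level of the 9 tested growth factor genes per transcript length, in TPM on a log axis, as mean and SD over 5 libraries of each group (ECKO: Atf4 ECKO). Values sum all transcripts of a gene, noncoding ones included, which raises Bmp4 and Pdgfa most visibly. Kitl has the highest mean in both wild type groups and Pdgfb in both ECKO groups, Hbegf is second in oxidative wild type, and Bmp2 is the lowest of the 9 in each group, at 1.09 to 1.89 TPM.

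Hgf (chr5:16553495-16620152, plus strand), the ligand of Met, was at the edge of detection. Its estimated counts summed over the 5 libraries of a group were, for wild type, 6 (glycolytic) and 11 (oxidative), and 5 in each muscle for ECKO, and no difference was detectable at this depth. All 11 counts of oxidative wild type came from library 4. Met, its receptor, stood at 3.3 to 4.93 CPM in the group means and passed the test in none of the 5 comparisons. Of the HGF pathway list (9 genes, 6 tested), 3 were called lower and none higher in oxidative ECKO, and 1 higher and 2 lower in glycolytic ECKO. Of all tested genes 32.0% were called in oxidative and 29.0% in glycolytic muscle.

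Each log2 value below is a difference between groups from edgeR's quasi-likelihood test over all 20 libraries, ± its SE, with p-values adjusted by Benjamini-Hochberg over 13971 genes, and a call is an adjusted p below 0.05. Between the muscles of wild type mice, 5 of 9 tested members were called, 2 higher and 3 lower in oxidative muscle, where 32.4% of all tested genes were called, 16.4% higher and 15.9% lower. In ECKO mice 4 were called, 2 higher and 2 lower (all genes 18.4%, 8.31% higher and 10.1% lower). For ECKO against wild type, 5 were called in oxidative muscle, 2 higher and 3 lower (all genes 32.0%, 14.6% higher and 17.4% lower), and 6 in glycolytic muscle, 3 higher and 3 lower (all genes 29.0%, 13.9% higher and 15.1% lower). For the interaction 3 members were called, which is the effect of genotype in oxidative minus that in glycolytic muscle, 2 higher and 1 lower (all genes 22.6%, 10.1% higher and 12.5% lower). The median member difference in these comparisons, in the same order, was 0.06, -0.184, -0.367, -0.221 and 0.109, beside -0.00331, -0.00159, 0.0156, 0.00404 and 0.00922 over all tested genes. The shares called among all genes are also the background for the counts of pathway and marker lists. Whether a list exceeded its background was not tested.

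**Figure D2:**
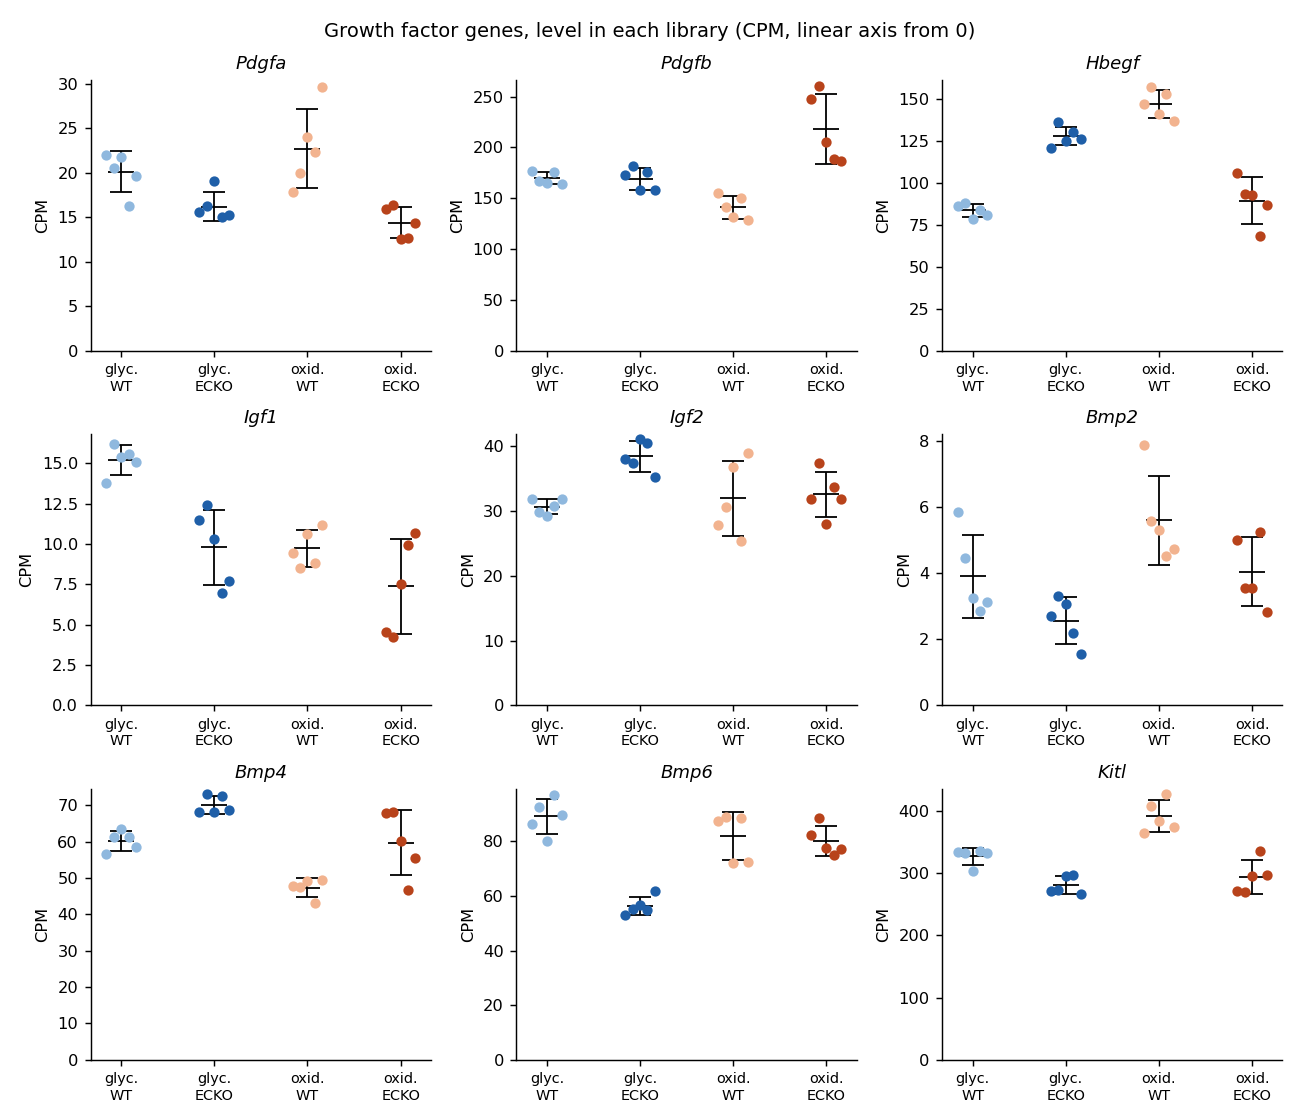
Level of each tested growth factor gene in each library (points, CPM, linear axes from 0) with the mean and SD of the 5 libraries per group. Hbegf is high in oxidative wild type and glycolytic ECKO, and Pdgfb is highest in oxidative ECKO.

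Hbegf (chr18:36504927-36515805, minus strand), a ligand of the EGF receptors and of ERBB4, changed in all 4 comparisons of groups, and its direction depended on the muscle. Hbegf stood at 86.2, 88.2, 78.6, 84.1 and 80.7 CPM in glycolytic wild type libraries 1 to 5 and at 147, 157, 141, 153 and 137 CPM in oxidative wild type. The corresponding ECKO values were 121, 136, 125, 130 and 126 CPM in glycolytic and 106, 93.3, 92.5, 68.6 and 86.8 CPM in oxidative muscle. The ranges of oxidative ECKO and glycolytic wild type overlap, and all other pairs of groups are apart.

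In wild type mice Hbegf was 1.76-fold higher in oxidative than in glycolytic muscle (log2 difference 0.81 ± 0.0716, adjusted p = 1.1e-09). With Atf4 deleted the order was turned, with Hbegf lower in oxidative muscle (log2 difference -0.51 ± 0.0726, adjusted p = 9.8e-06). Against wild type of the same muscle it fell by 0.715 on the log2 scale in oxidative ECKO (SE 0.0718, adjusted p = 1.2e-08) and rose by 0.61 ± 0.0723 in glycolytic ECKO (adjusted p = 2.9e-07). The interaction was -1.32 ± 0.102 (95% interval -1.534 to -1.115, adjusted p = 2.2e-10). With libraries 4 and 5 alone the oxidative ECKO difference of Hbegf was -0.909 and the interaction -1.514, and with libraries 1, 2 and 3 alone they were -0.582 and -1.175, all called. Leukocyte RNA was also highest in oxidative wild type and fell there in ECKO (all 11 tested markers called lower), but it was lower in glycolytic ECKO, where Hbegf was higher. Its part in the Hbegf values was not tested.

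Of the other EGF family ligands, receptors and shedding proteins (15 genes, 10 tested), 1 was called higher and 3 lower in oxidative against glycolytic wild type muscle. In ECKO against wild type, 1 was called higher and 2 lower in oxidative muscle, and 3 higher and 3 lower in glycolytic muscle. Adam12, a protease that can shed HB-EGF, stood at 6.93 ± 1.32 CPM in glycolytic wild type and 21.6 ± 0.963 CPM in glycolytic ECKO (log2 difference 1.65, adjusted p = 2.9e-09). Cd9, a tetraspanin that associates with the membrane form, was lower in oxidative than glycolytic muscle of both genotypes and lower in ECKO in both muscles, from 548 ± 15.4 CPM in glycolytic wild type to 393 ± 9.78 CPM in oxidative ECKO. Erbb2, a co-receptor of the family, was higher in ECKO in oxidative muscle (log2 difference 0.37, adjusted p = 0.00081). Egfr stood at only 1.67 to 3.25 CPM and passed no test.

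The gene whose levels were most like those of Hbegf over the 20 libraries, among 10337 genes whose mean reached 4 CPM, was Plaur, the urokinase receptor (Pearson r 0.969). Slc38a2, an amino acid transporter, and Eif1a, a translation factor, followed at 0.968 each. These r values are descriptions over libraries that share 4 groups. Plaur stood at 138, 283, 230 and 152 CPM in the group means, wild type before ECKO and glycolytic before oxidative.

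Pdgfb (chr15:79995874-80014977, minus strand), the pericyte-recruiting PDGF ligand, was raised in oxidative ECKO. Its levels were 177, 167, 165, 176 and 164 CPM in glycolytic wild type and 173, 182, 158, 176 and 158 CPM in glycolytic ECKO. In oxidative muscle they were 155, 141, 132, 150 and 129 CPM in wild type and 248, 260, 205, 189 and 187 CPM in ECKO. The oxidative ECKO libraries all stood above the libraries of the other 3 groups, and the 2 glycolytic groups overlapped.

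Wild type Pdgfb was lower in oxidative than in glycolytic muscle by 0.26 on the log2 scale (log2 difference -0.26 ± 0.0759, adjusted p = 0.0087). ECKO raised it in oxidative muscle by 0.62 ± 0.076 (1.54-fold, adjusted p = 3.5e-07), with 0.41 from libraries 4 and 5 alone (adjusted p = 1.9e-05) and 0.76 from libraries 1, 2 and 3 alone. In glycolytic muscle the difference was -0.003 (95% interval -0.159 to 0.154, adjusted p = 0.98). The interaction was 0.62 ± 0.107 (adjusted p = 8.5e-05). Between the muscles of ECKO mice Pdgfb was higher in oxidative muscle by 0.36 ± 0.076 (adjusted p = 0.0011), but the value was 0.148 (adjusted p = 0.14) with libraries 4 and 5 alone. The highest coordinate of Pdgfb, which is the start of this minus-strand gene, lies 240206 bases before Atf4 on chromosome 15.

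Pdgfa (chr5:138976014-138997370, minus strand), which signals mainly through the alpha receptor, fell in oxidative ECKO. It stood at 17.8, 20, 24, 22.3 and 29.6 CPM in oxidative wild type and at 15.9, 16.4, 12.6, 12.7 and 14.3 CPM in oxidative ECKO, and these ranges are apart. The difference was -0.67 ± 0.117 on the log2 scale (adjusted p = 5.8e-05). Glycolytic libraries held 22, 20.5, 21.8, 16.3 and 19.6 CPM in wild type and 15.6, 16.3, 19.1, 15 and 15.2 CPM in ECKO, which did not pass (-0.30 ± 0.119, adjusted p = 0.061), and the interaction did not pass either (-0.38, 95% interval -0.719 to -0.033, adjusted p = 0.11). Leaving out 1 library made a call of each: -0.365 and -0.382 in glycolytic muscle without wild type replicate 4 and ECKO replicate 3, and -0.457 for the interaction without oxidative wild type replicate 1. The glycolytic difference was also called with no filter on low counts (-0.325, adjusted p = 0.032), with its groups fitted alone (-0.29, adjusted p = 0.024) and with either part of the oxidative ECKO libraries (adjusted p = 0.049 and 0.044).

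The longer, retained form of Pdgfa was rare. Pdgfa-201 held a mean of 0% to 3.13% of the counts of the gene in the 4 groups, at most 28.9 counts in a library. The leading transcript, Pdgfa-202, held 52.8 ± 3.62% (SD, n = 5) and 47.4 ± 5.97% in glycolytic and oxidative muscle of wild type, and 50.5 ± 5.41% and 40.1 ± 4.45% in those of ECKO. None of its 4 comparisons passed (2-sided exact permutation test, smallest adjusted p = 0.13 over 32 tests). These tests could hardly give a call, as set out for Kitl below.

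Among the other PDGF genes (4 genes, 3 tested), Pdgfrb, the receptor of PDGF-B and a pericyte gene, was called in both genotype comparisons in opposite directions. It stood at 34.7 ± 2.24 CPM in glycolytic wild type and 24.9 ± 2.34 CPM in glycolytic ECKO (log2 difference -0.48, adjusted p = 0.0031). In oxidative muscle it rose from 17.9 ± 3.13 to 27.4 ± 6.07 CPM (log2 difference 0.63, adjusted p = 0.00021), and the interaction was 1.105 (adjusted p = 1.9e-05). The whole mural list of 10 markers had 6 called higher and 0 lower in oxidative ECKO (all genes 14.6% and 17.4%). In glycolytic ECKO 2 were higher and 1 lower (all genes 13.9% and 15.1%). In a bulk sample, fewer cells of a type and less RNA per cell cannot be told apart, and the part of mural cells in the Pdgfb values was not tested. Pdgfd, an endothelial PDGF, stood at 110 to 121 CPM and was called in no comparison.

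Bmp6 (chr13:38345107-38500302, plus strand), a BMP ligand made by endothelium, fell in glycolytic ECKO. Glycolytic wild type libraries held 86.3, 92.6, 80.3, 97.1 and 89.5 CPM, and glycolytic ECKO libraries 52.9, 55.1, 56.6, 54.9 and 61.8 CPM. In oxidative muscle the values were 87.5, 89.1, 72.1, 88.4 and 72.5 CPM in wild type and 82.2, 88.6, 77.7, 74.9 and 77.1 CPM in ECKO. Every glycolytic ECKO library stood below every library of the other 3 groups, which overlapped one another.

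The glycolytic difference was -0.67 ± 0.0681 on the log2 scale (0.63-fold, adjusted p = 2.3e-08) and the oxidative one -0.034 (95% interval -0.17 to 0.103, adjusted p = 0.75, or 0.024 with libraries 1, 2 and 3 alone), with an interaction of 0.63 ± 0.0951 (adjusted p = 1.4e-05). Between the ECKO muscles Bmp6 was higher in oxidative muscle by 0.51 ± 0.0688 (adjusted p = 5.1e-06). In glycolytic ECKO 8 of the 12 endothelial markers were also called lower and none higher, with a median difference of -0.321, and their part in the Bmp6 values was not tested. Bmp6 shares 224 of its 3900 exon bases with Txndc5, which lies on the other strand and held a mean of 1055 counts, so its reads are uncertain unless strand was used in counting. The genes antisense to or overlapping the other members held at most 33.2 counts in a library.

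Bmp4 (chr14:46383520-46390669, minus strand), the second BMP member, was called higher in ECKO in both muscles. It stood at 56.6, 61.2, 63.4, 61.3 and 58.5 CPM in glycolytic wild type and 68.1, 73.1, 68.1, 72.6 and 68.8 CPM in glycolytic ECKO. Oxidative libraries held 47.8, 47.5, 49.3, 43 and 49.6 CPM in wild type and 67.9, 68.2, 60.2, 46.8 and 55.6 CPM in ECKO. Glycolytic ranges are apart, while oxidative ECKO library 4 lies within the range of wild type.

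Bmp4 was lower in oxidative than in glycolytic wild type muscle (log2 difference -0.345 ± 0.0727, adjusted p = 0.00056). In ECKO against wild type the differences were 0.22 ± 0.0722 in glycolytic muscle (adjusted p = 0.023) and 0.33 ± 0.0733 in oxidative muscle (adjusted p = 0.00094). The glycolytic call was lost, with a difference of 0.199 to 0.208 and an adjusted p of 0.052 to 0.059, without wild type replicate 1 or 5 or ECKO replicate 2 or 4. The oxidative one was 0.12 (adjusted p = 0.24) with libraries 4 and 5 alone and 0.47 (adjusted p = 4.1e-07) with libraries 1, 2 and 3 alone. Between the ECKO muscles the difference was -0.236 ± 0.0728 (adjusted p = 0.023), but a fit of these groups alone gave -0.228 (adjusted p = 0.079). That call was also lost, at -0.163 to -0.228, without glycolytic ECKO replicate 2, 3 or 4 or oxidative ECKO replicate 4 or 5, and it was -0.087 (adjusted p = 0.35) with oxidative ECKO libraries 1, 2 and 3 alone. The interaction of Bmp4 did not pass (0.109, adjusted p = 0.5), but was called with libraries 1, 2 and 3 alone (0.266, adjusted p = 0.013) and had the opposite sign with 4 and 5 alone (-0.097, adjusted p = 0.51).

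Bmp2 (chr2:133552159-133562885, plus strand), the third, was low and passed no test in the main fit of all 20 libraries. Its group means were 3.91 ± 1.26 and 5.61 ± 1.35 CPM in glycolytic and oxidative muscle of wild type, and 2.56 ± 0.711 and 4.05 ± 1.04 CPM in those of ECKO. Oxidative muscle was higher by 0.53 ± 0.221 in wild type (adjusted p = 0.07) and by 0.64 ± 0.246 in ECKO (adjusted p = 0.07). Deletion differences were -0.59 ± 0.244 in glycolytic (adjusted p = 0.07) and -0.48 ± 0.224 in oxidative muscle (adjusted p = 0.11), with ranges that overlap. Single calls appeared without glycolytic wild type replicate 1 (wild type muscles, 0.70, adjusted p = 0.019), glycolytic wild type replicate 4 (glycolytic ECKO, -0.688, adjusted p = 0.045) or oxidative ECKO replicate 5 (ECKO muscles, 0.763, adjusted p = 0.032). The glycolytic ECKO difference was also called with oxidative ECKO libraries 1, 2 and 3 alone (-0.607, adjusted p = 0.048). Limma-voom, DESeq2 and a replicate block gave further calls of Bmp2 with all 20 libraries, listed with the alternatives below.

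**Figure D3:**
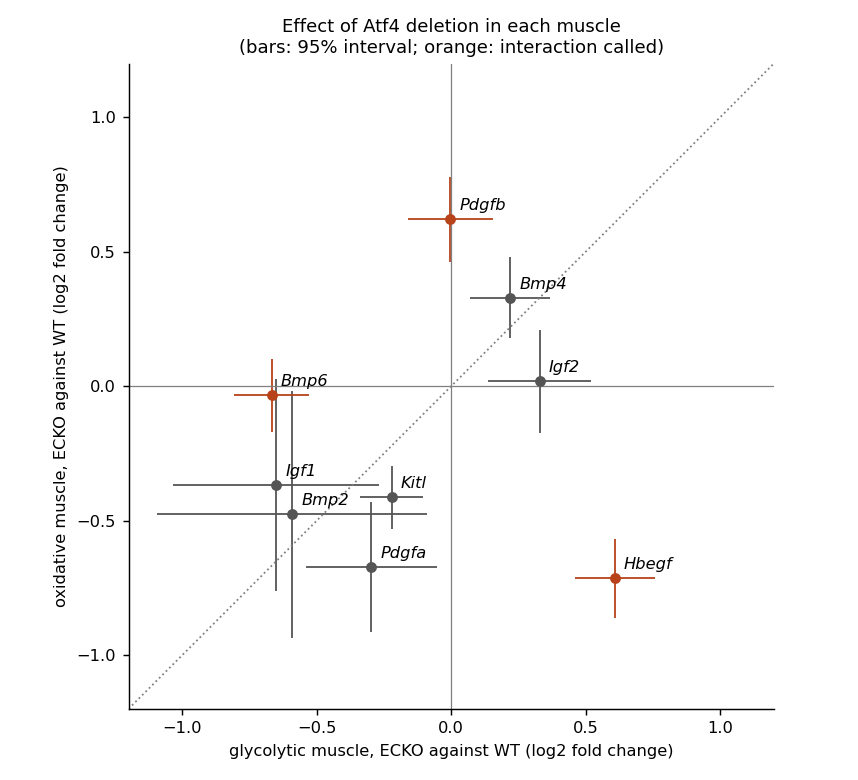
Log2 difference of ECKO against wild type in glycolytic muscle (x axis) and in oxidative muscle (y axis) for the 9 tested genes, with 95% intervals; the dotted line marks equal effects, and orange marks a called interaction. Hbegf lies below the line at 0.609 and -0.715, and Pdgfb and Bmp6 lie above it.

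The BMP receptors, co-receptors and SMADs (13 genes, 11 tested) had 4 called higher and 0 lower in oxidative ECKO, and 2 higher and 2 lower in glycolytic ECKO. Eng, the endothelial co-receptor endoglin, stood at 1930, 1540, 2270 and 1870 CPM in the same order of groups, and was higher in ECKO in both muscles (log2 differences 0.24 and 0.28). Smad1, a signal carrier, was lower in glycolytic ECKO (72 ± 2.5 to 50.5 ± 2.39 CPM, log2 difference -0.51, adjusted p = 7.4e-08), the comparison in which Bmp6 fell. BMP inhibitors (14 genes, 8 tested) had 1 called higher and 1 lower in oxidative ECKO, and 1 higher and 2 lower in glycolytic ECKO. The 4 furin-type convertases that process such precursors had 1 called higher and 0 lower in each muscle, and the 4 other BMP ligands, 2 of them tested, had none called. Bambi, a decoy receptor, was lower in both (log2 differences -0.30 and -0.41).

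The 6 BMP target genes had 3 called higher and 0 lower in oxidative ECKO, with a median difference of 0.43 beside 0.0156 over all tested genes. Id1, an inhibitor of differentiation, rose there from 597 ± 130 to 930 ± 42.1 CPM (log2 difference 0.64, adjusted p = 4.3e-06), Id3 from 1080 ± 164 to 1690 ± 126 CPM (0.65, adjusted p = 4.9e-08) and Atoh8 from 18.8 ± 2.05 to 32.6 ± 8.62 CPM (0.78, adjusted p = 3e-05). In glycolytic ECKO 2 were called lower and none higher: Hey1, also a Notch target, fell from 136 ± 11.7 to 83.7 ± 2.98 CPM (-0.69, adjusted p = 1.7e-06), and Id1 from 780 ± 41.5 to 636 ± 12.3 CPM (-0.295, adjusted p = 0.016). The interaction was called for Id1, Id3, Atoh8 and Hey1, and the value of Atoh8 was 0.299 (adjusted p = 0.13) with oxidative ECKO libraries 4 and 5 alone.

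Kitl (chr10:100015630-100100416, plus strand), the ligand of Kit, fell in ECKO in both muscles. In glycolytic muscle it stood at 334, 332, 303, 336 and 332 CPM in wild type and 272, 273, 295, 298 and 266 CPM in ECKO. The oxidative values were 364, 408, 384, 428 and 374 CPM in wild type and 272, 270, 295, 336 and 297 CPM in ECKO. In both muscles the ECKO and wild type ranges are apart, and the ECKO muscles overlap.

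Oxidative wild type was above glycolytic by 0.26 ± 0.0567 (adjusted p = 0.00083). The differences of ECKO against wild type were -0.41 ± 0.0569 in oxidative muscle (0.751-fold, adjusted p = 2.3e-06) and -0.22 ± 0.057 in glycolytic muscle (0.858-fold, adjusted p = 0.0044). The interaction was -0.192 (95% interval -0.357 to -0.026, adjusted p = 0.09), so the effects in the 2 muscles were not shown to differ, though it was called without oxidative ECKO replicate 4 (-0.246, adjusted p = 0.014) and with libraries 1, 2 and 3 alone (-0.24, adjusted p = 0.018), and was -0.084 (adjusted p = 0.54) with 4 and 5 alone. Kitl-202, with exon 6, held 94.5 ± 0.555% of the Kitl counts (SD, n = 5) and 92.4 ± 1.38% in glycolytic and oxidative muscle of wild type, and 95.6 ± 1.18% and 94.7 ± 0.884% in those of ECKO. Count shares are not corrected for length: Kitl-202 has 5648 bases and the form of 245 amino acids, without exon 6, has 1260. Per transcript length that form stood at 19.2 TPM beside 71.8 TPM for Kitl-202 in glycolytic muscle of wild type. The oxidative values were 23.7 and 72.4 TPM. For ECKO they were 14.1 and 68.2 TPM (glycolytic) and 17.4 and 66.5 TPM (oxidative). The form without exon 6 was thus a larger part of Kitl than its count share. The largest differences in the count share of Kitl-202 had an adjusted p of 0.13 (2-sided exact permutation test). Of 32 such tests over 8 members none was called. The smallest raw p that 252 assignments of 5 against 5 allow is 0.0079. With 32 tests adjusted together, several had to reach that floor before any could be called. Hbegf-201 reached it in oxidative muscle (96.6% in wild type, 94.5% in ECKO) and had an adjusted p of 0.13. The lack of calls therefore does not show that the shares were alike.

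Genes most like Kitl over the libraries were Xpot, a tRNA exporter (r 0.94), Nupr1, a stress-response gene (r 0.93), and Ets1, an endothelial transcription factor (r 0.926). Kit itself was higher in oxidative muscle, and rose in oxidative ECKO: 49.5, 57.9, 50.3, 52.9 and 48.9 CPM in glycolytic wild type and 81.7, 90.8, 92.6, 88.9 and 101 CPM in oxidative wild type. ECKO libraries held 68.3, 54.6, 57.5, 58.3 and 63.2 CPM in glycolytic and 191, 200, 187, 160 and 118 CPM in oxidative muscle. The oxidative ECKO difference was 0.90 (adjusted p = 3.8e-08), with 0.598 from libraries 4 and 5 alone. The other 4 mast cell markers, Cpa3, Mcpt4, Cma1 and Tpsb2, were at 0 in 3 groups, and in oxidative wild type Cpa3 and Mcpt4 reached at most 0.343 CPM in a library.

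**Figure D4:**
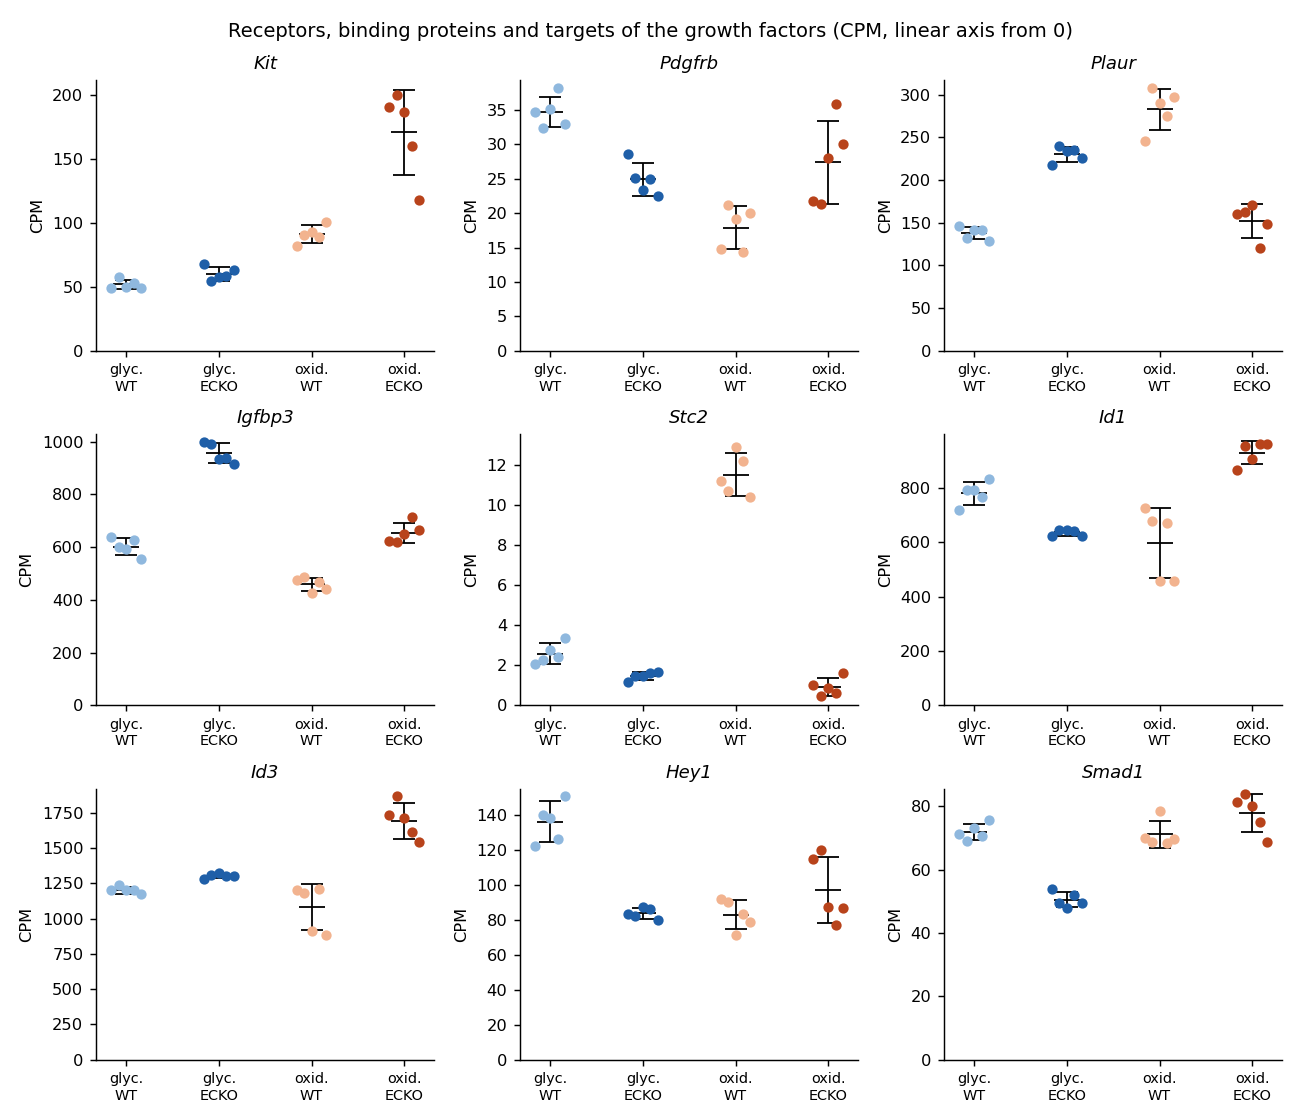
Receptors, IGF-binding and related proteins, Smad1 and BMP targets chosen after their values were seen, in CPM per library (points, linear axes from 0), with the mean and SD of each group. Kit is highest in oxidative ECKO, at 118 to 200 CPM, and Stc2 is highest in oxidative wild type.

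Igf1 (chr10:87858265-87937042, plus strand), a growth factor of muscle fibres and satellite cells, fell in glycolytic ECKO and varied among the oxidative ECKO libraries. Glycolytic libraries held 13.8, 16.2, 15.4, 15.6 and 15.1 CPM in wild type and 11.5, 12.4, 10.3, 6.98 and 7.73 CPM in ECKO. In oxidative muscle the values were 9.45, 8.53, 10.6, 8.8 and 11.2 CPM in wild type and 4.52, 4.25, 7.51, 9.92 and 10.7 CPM in ECKO. Libraries 1, 2 and 3, which held Y-linked RNA, lie below the wild type range, and libraries 4 and 5, which held almost none and the most fibroblast RNA, lie within it.

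The glycolytic difference was -0.65 ± 0.186 (adjusted p = 0.0095) and its ranges are apart. Wild type muscles differed by -0.645 ± 0.182, oxidative lower (adjusted p = 0.0075), but by -0.363 (adjusted p = 0.24) once transcript length entered the fit. The oxidative ECKO difference was -0.37 ± 0.192 (adjusted p = 0.15) with all 5 libraries, 0.081 (adjusted p = 0.78) with libraries 4 and 5 alone and -0.793 (adjusted p = 0.0013) with libraries 1, 2 and 3 alone. Leaving out library 5 was enough for a call (-0.555, adjusted p = 0.028). Between the ECKO muscles Igf1 differed by -0.361 (adjusted p = 0.23), with -0.777 (adjusted p = 0.0034) from libraries 1, 2 and 3 alone and 0.091 (adjusted p = 0.8) from 4 and 5 alone. The interaction was 0.284 (adjusted p = 0.5), with 0.739 (adjusted p = 0.011) from libraries 4 and 5 alone and -0.123 (adjusted p = 0.76) from 1, 2 and 3 alone. The same libraries also stood apart for Pdgfb, Hbegf, Bmp4, Bmp6 and Kitl, whose ranges in libraries 1 to 3 and in 4 and 5 did not overlap: means of 238 and 188 CPM for Pdgfb, 97.3 and 77.7 for Hbegf, 65.4 and 51.2 for Bmp4, 82.8 and 76 for Bmp6, and 279 and 317 for Kitl. The part of sex in these differences was not tested. Fibroblasts can also make Igf1, and in the oxidative ECKO libraries Igf1 was high where the fibroblast markers were high: Pdgfra stood at 0.919, 1.42, 2.61, 4.24 and 5.49 CPM in libraries 1 to 5, and Igfbp6, an IGF-binding protein, at 3.18, 3.55, 9.45, 17.3 and 14.9 CPM. Between the groups this did not hold, since glycolytic wild type had the highest Igf1 with 59.9 to 70.1 CPM of fibroblast markers. The part of fibroblast RNA was not tested.

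**Figure D5:**
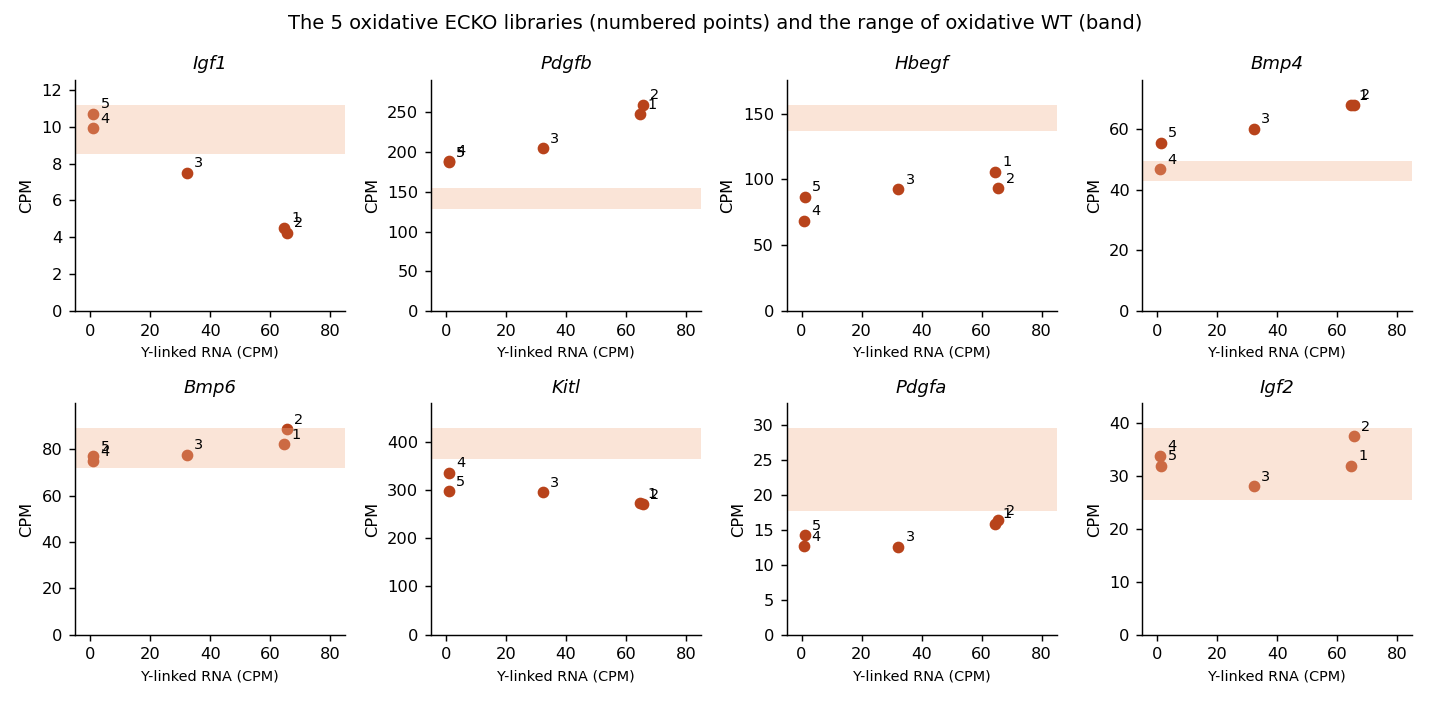
The 5 oxidative ECKO libraries (points numbered by replicate): level of 8 growth factor genes in CPM against summed Y-linked RNA in CPM, with the range of the 5 oxidative wild type libraries as a band. Igf1 lies within the band in libraries 4 and 5 and below it in libraries 1 to 3; fibroblast markers split these libraries too.

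Igf2 (chr7:142650766-142666816, minus strand), the other IGF, was higher in glycolytic ECKO. It stood at 31.9, 29.8, 29.3, 30.8 and 31.8 CPM in glycolytic wild type and 38.1, 37.5, 41.1, 40.6 and 35.2 CPM in glycolytic ECKO, ranges that are apart. The difference was 0.33 ± 0.0926 (adjusted p = 0.0083), or 0.327 (adjusted p = 0.053) when transcript length entered the fit. Oxidative means were 32 ± 5.79 CPM in wild type and 32.6 ± 3.44 CPM in ECKO (log2 difference 0.018, 95% interval -0.173 to 0.209), and the interaction did not pass (-0.31, adjusted p = 0.091) except without oxidative wild type replicate 4 (-0.393, adjusted p = 0.021). The ECKO muscles differed by -0.252 (adjusted p = 0.061), or -0.30 (adjusted p = 0.031) without oxidative ECKO replicate 2. This difference was also called by limma-voom (-0.277, adjusted p = 0.044) and with its groups fitted alone in edgeR (-0.243, adjusted p = 0.038).

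Of 16 genes for IGF receptors, their substrates, binding proteins and proteases, 12 were tested. In ECKO against wild type 5 were called higher and 2 lower in oxidative muscle, and 4 higher and 3 lower in glycolytic muscle. Igfbp3, a binding protein, was higher in ECKO in both muscles (602 ± 32.3 to 957 ± 38.7 CPM in glycolytic and 459 ± 24.7 to 654 ± 38.4 CPM in oxidative, log2 differences 0.67 and 0.51). Igf1r, the receptor of both ligands, rose in oxidative ECKO (34.6 ± 1.99 to 49 ± 5.98 CPM, 0.49, adjusted p = 3.7e-06). Stc2, a stanniocalcin that inhibits the protease releasing IGF from its binding proteins, went from 11.5 ± 1.06 to 0.901 ± 0.441 CPM there (log2 difference -3.549, adjusted p = 5.1e-13). In wild type it was higher in oxidative than glycolytic muscle (log2 difference 2.145, adjusted p = 8.2e-10).

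Over the same 20 libraries and 10337 genes, the genes most like the other members were Ly6c1, an endothelial surface protein, for Pdgfb (r 0.954), Ndufa10, a subunit of respiratory complex I, for Bmp4 (r 0.956), Slc29a1, a nucleoside transporter, for Igf1 (r 0.914) and Plscr2 for Bmp6 (r 0.912). Likeness was lower for Pdgfa (Atp5g1, r 0.853), Bmp2 (Sh2d5, r 0.811) and Igf2 (Mical1, r 0.785), as a description only.

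Individual libraries mostly kept the groups apart for the called members. The ranges of 5 of 9 members did not overlap between wild type muscles (all genes 23.1%), 3 between ECKO muscles (13.2%), 4 between genotypes in oxidative muscle (20.2%) and 6 between genotypes in glycolytic muscle (22.4%).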

How the data were processed

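RNA of sorted muscle endothelial cells was sequenced from 1 end in 20 libraries, prepared with the TruSeq stranded mRNA kit, per the labels' protocols. The authors deposited, per library, estimated counts per transcript and TPM; per the submitters' processing notes kallisto and DESeq2 were used, without versions, and the build is given as GRCh38.p13, a human assembly. The sources used here do not say how strand was handled. The transcript identifiers are mouse: 128643 of 129439 matched GENCODE release M21 (GRCm38), 128347 with identical length, and this annotation gave names and coordinates. At most 0.221% of a library's counts was unmatched.

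Estimated counts were summed per gene, rounded to whole numbers and tested with edgeR 4.0.16 (R 4.3.3): quasi-likelihood test, TMM factors, filterByExpr, group means over all libraries, Benjamini-Hochberg adjustment. The SE is the log2 value over the square root of F. The shares of transcripts were compared by a 2-sided exact permutation test, for members with a mean of at least 50 counts and at least 2 transcripts. The fit was tested on simulated data. Libraries were not paired by replicate number in the main fit, since those with the same number did not deviate together. The members and lists were chosen with earlier results of these data known. By rule, the text could name the members, Atf4, up to 4 tested genes of each pathway list with the smallest adjusted p per comparison, the 3 genes most like each member over the libraries, and marker genes. Egfr, Txndc5 and the genes of the plot of pathway partners were chosen after their values were seen, and a few values of listed genes fall in comparisons where the rule did not name them. Alternatives were RLE factors, no filter, DESeq2 1.42.0, limma-voom 3.58.1, a transcript length offset, the compared groups alone, a replicate block, each library left out, and parts of oxidative ECKO. The TPM values were used only to compare genes and transcripts.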

Additional observations from a re-analysis of the deposited data

Results flagged for a closer look

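Within groups of 5 libraries, 1 library lay far from the rest for 3 of 40 combinations of member and group checked: the gap to its neighbour, over the range of the group, passed the critical value of 0.71, a flag that chance gives in about 1 in 20 groups. These were Hgf in oxidative wild type (1) and in oxidative ECKO (0.811), both near 0 counts, and Kitl in glycolytic wild type (0.876), where library 3 stood at 303 CPM and the others at 332 to 336 CPM.

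The effect of genotype differed between the muscles, oxidative minus glycolytic on the log2 scale, for 3 members by the interaction test of edgeR: Hbegf (-1.324), Bmp6 (0.633) and Pdgfb (0.623). Among the pathway genes it was higher in oxidative muscle for Pdgfrb (1.105), Id1 (0.933), Hey1 (0.918), Atoh8 (0.745), Kit (0.692), Smad1 (0.637), Id3 (0.535), Igfbp4 (0.531), Rgmb (0.319), Igf1r (0.317), Twsg1 (0.317), Acvrl1 (0.197) and Cd9 (0.156), of which Igf1r and Atoh8 were not called with oxidative ECKO libraries 4 and 5 alone. It was lower for Stc2 (-2.74), Adam12 (-1.761), Plaur (-1.642), Crim1 (-0.681) and Stc1 (-0.344).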

How the results depend on the processing

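Of 229 counts of called genes, members or transcript shares under the alternatives, 228 stayed within 1.5 times the main count. The exception was the interaction, with 5 members called against 3 with oxidative ECKO libraries 1, 2 and 3 alone. The count of called transcript shares was 0 throughout, which the floor on their p-values made likely beforehand. Of 936 member differences 875 kept their direction and side of the threshold, 15 lost a call, 27 gained one and 19 changed sign. Of 2563 differences of called pathway genes 2397 kept both, 165 lost the call and 1 changed sign. Sign changes befell values that were not called, except Smad7. With oxidative ECKO libraries 4 and 5 alone, Igf1 was 0.091 between the ECKO muscles and 0.081 in oxidative ECKO, the interaction of Bmp4 -0.097 (0.266 and called with 1, 2 and 3 alone) and Smad7 in oxidative ECKO -0.038. With libraries 1, 2 and 3 alone, Bmp6 was 0.024 in oxidative ECKO and the interaction of Igf1 -0.123 (0.739 and called with 4 and 5 alone). With a transcript length offset, Pdgfb was 0.016 in glycolytic ECKO and the interaction of Bmp4 0.000, and with the groups compared alone Pdgfb was 0.003. Leaving out each library gave Igf2 -0.021 to 0.139 between wild type muscles and -0.059 to 0.097 in oxidative ECKO, Pdgfb -0.032 to 0.02 in glycolytic ECKO, and a Bmp2 interaction of -0.057 to 0.266. The cause was not tested. Of 352 differences in the share of the leading transcript, in percentage points, 330 kept their direction and 22 changed sign. None was called, which says little because the tests could hardly give a call. Shares of summed TPM in place of counts gave Pdgfb 0.208 in oxidative ECKO, Igf2 0.821 between wild type muscles and Bmp6 0.0405 in glycolytic ECKO. Leaving out each library gave shares of Igf2 from -1.23 to 0.658 between wild type muscles, -1.27 to 1.7 between ECKO muscles and -0.139 to 2.35 in glycolytic ECKO, of Bmp4 from -3.51 to 1.34 in glycolytic ECKO, and of Bmp6 from -0.0588 to 0.0129 between wild type muscles and -0.0369 to 0.0312 in glycolytic ECKO. Limma-voom called Bmp2 between wild type muscles (0.55, adjusted p = 0.037) and DESeq2 between ECKO muscles (0.653, adjusted p = 0.047).

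Libraries with the same replicate number did not deviate together (30 pairs, r -0.0662 to 0.0996, none over 0.1), and 9 of 30 correlated best with their own number. Pairs across genotypes cannot share an animal, so only pairs between the muscles of a genotype bear on pairing by animal. In those r was -0.0438 to 0.0312 in wild type and -0.0585 to 0.0324 in ECKO. Y-linked RNA stood at 64.6, 65.6 and 32.2 CPM in oxidative ECKO libraries 1, 2 and 3. In glycolytic ECKO libraries 1, 2 and 3 it stood at 1.06, 1.11 and 0.596 CPM. Those ECKO pairs therefore did not come from the same set of animals. With a replicate block 4388, 2442, 4332, 3969 and 3064 genes were called in the 5 comparisons against 4520, 2573, 4470, 4054 and 3163 without it, with 6, 5, 5, 7 and 3 members. The added members were Bmp2 between wild type muscles (0.534, adjusted p = 0.03), between ECKO muscles (0.653, adjusted p = 0.03) and in glycolytic ECKO (-0.582, adjusted p = 0.035). Depth limits Hgf, at 11 counts or fewer in a library, and the long form of Pdgfa, at 28.9 or fewer.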
